A study of Mus musculus with 4 samples.

Results

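The germ cells of the fetal mouse ovary were compared with the somatic cells of the same organ at 15.5 days post coitum (dpc). Each side is 1 library of gene-level RNA signal, so 2 of the 4 libraries of the series were set against each other, over all 20299 genes listed. The gonads came from crosses of CF1 females with TgOG2 males, whose transgene puts enhanced green fluorescent protein (EGFP) under the promoter of Oct4, the germ cell gene listed as Pou5f1. The female germ group is the EGFP-positive cells of the sorted ovary, and the female somatic group is the EGFP-negative cells of the same organ, which hold every ovarian cell type that does not carry the reporter. The transgene, the cross and the age are shared by both groups, no further treatment is named, and the labels do not say how many fetuses were pooled or whether the fractions came from separate animals. The corresponding male germ and male somatic libraries of the testis, which share no library with the ovarian pair, are given beside the ovarian values where they help to read them.

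Female germ cells leave mitosis before birth and enter the prophase of the first meiotic division, in which chromosomes condense along a protein axis, break and repair their DNA, pair with their homologues and are joined by the synaptonemal complex. Retinoic acid and bone morphogenetic proteins from surrounding tissue switch this programme on, and STRA8 is the transcriptional switch inside the germ cell. The cells around them include pregranulosa cells, which will enclose each oocyte in a follicle, the surface epithelium, the stroma, vessels and blood.

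Levels are given in SPM, the deposited signal of a gene per 1000000 of its library's total. The female germ library held 106.2 M signal units (M standing for 1000000), estimated to stand for 17.5 M sequenced fragments, and the female somatic library 99.32 M, estimated at 24.2 M fragments. A floor of 3 fragments was worth 0.171 SPM in the germ library and 0.124 SPM in the somatic library. A gene was called germ-higher or somatic-higher when the 2 libraries differed at least 4-fold and the higher one reached 5 SPM. With 1 library a side there is no replicate check and no p-value, so the calls are sizes. Brackets after a fold hold the exact conditional binomial (Clopper-Pearson) 95% interval, which covers counting error of the estimated fragments only. SPM is not divided by gene length and compares libraries, not genes. Every ratio is relative to library totals, and fewer cells of a type cannot be told apart from less RNA per cell in such bulk samples.

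By this rule 1403 genes were germ-higher, 6.91% of all genes listed and 11.4% of the 12263 that reached 5 SPM in either library. Another 3018 were somatic-higher, 14.9% of all genes listed and 24.6% of those that reached 5 SPM. The median log2 ratio of germ over somatic was -0.16 over the 16247 genes above the floor in at least 1 library. The somatic direction therefore held more genes, and the share of calls that were germ-higher was 31.7%.

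The labelled identities were checked first on 4 markers. Sycp3, a structural protein of the chromosome axis (chromosome 10, 87922331 to 87935981 on mm9, as are all coordinates of measured genes here), stood at 486.5 SPM in germ cells and 4.51 SPM in somatic cells, 107.9-fold higher in germ cells [89.4 to 131.7]. Dazl, an RNA-binding protein that licenses germ cells for meiosis (chromosome 17, 50418718 to 50432924), stood at 1076 and 2.71 SPM, 397.1-fold higher in germ cells [309.8 to 510.0]. Fst, the secreted activin antagonist of the ovarian soma (chromosome 13, 115242469 to 115248938), stood at 17.5 SPM in germ cells and 728.5 SPM in somatic cells, 41.6-fold higher in somatic cells [37.1 to 46.7]. Wnt4, the ovarian Wnt ligand (chromosome 4, 136833549 to 136855416), stood at 2.87 and 140.7 SPM, 49.0-fold higher in somatic cells [37.3 to 66.5]. All 4 markers lay on the side of their label. The 9 Y-linked genes examined were at or under the floor in both ovarian libraries.

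How cleanly the fractions were separated can be read from the marker lists. The summed signal of 19 germ cell identity genes in the somatic library was 0.921% of that in the germ library. In the other direction, the summed signal of 20 stroma genes in the germ library was 1.57% of that in the somatic library, that of 17 pregranulosa genes 3.23%, and that of 13 erythroid genes 0.763%. The share was 2.07% for surface epithelium, 5.45% for pericyte and smooth muscle, 8.99% for mesonephric duct and 10.2% for endothelial genes. The surface epithelium and mesonephric duct lists share Krt8. It was 36.1% for leukocyte and 33.7% for steroidogenic genes, lists whose summed somatic signal was only 36.2 and 189.1 SPM. Whether the remainder is carried-over RNA or true expression was not tested.

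**Figure D1:**
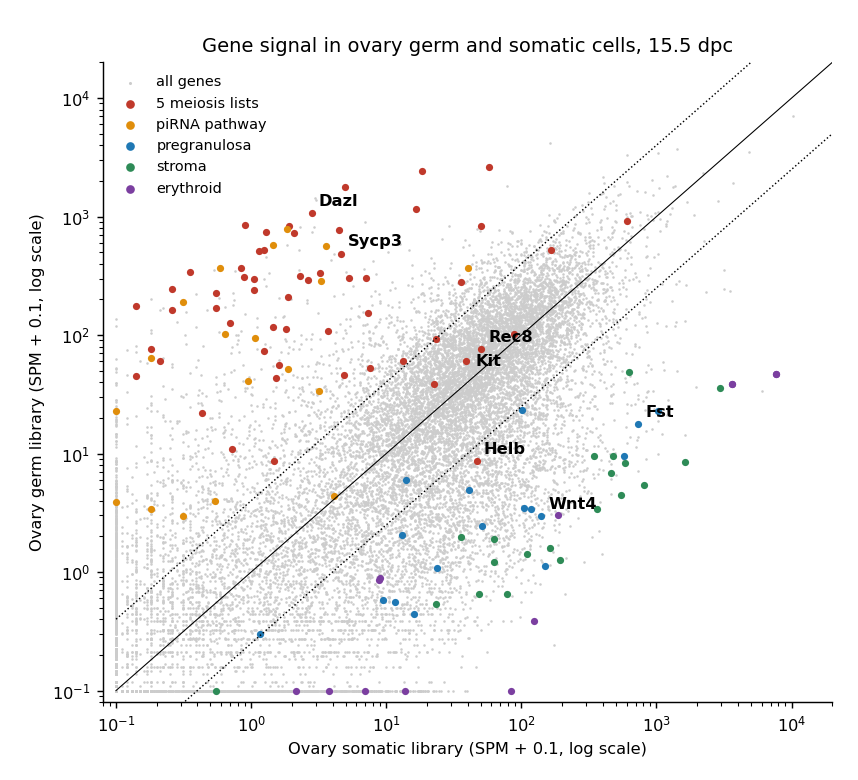
Signal of every gene in the ovary germ library (vertical) against the ovary somatic library (horizontal), both as SPM + 0.1 on log scales, so that a gene listed at 0 sits at 0.1. Each grey point is 1 gene, coloured points are members of the lists named, the solid line is equality and the dotted lines are 4-fold. Most meiosis and piRNA genes lie above the upper dotted line and most stroma, pregranulosa and erythroid genes below the lower one, with Rec8 and Helb away from the other meiosis genes. Kit, which is in no coloured list, lies near the line of equality.

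Meiosis genes as a group set the germ library apart. Of 56 genes in 5 lists (entry, synaptonemal complex and axis, cohesin, recombination, telomere attachment), 48 were germ-higher (85.7%, against 6.91% of all genes), 1 was somatic-higher and 7 were not called. Their median log2 ratio was 6.73, against -0.16 over all genes. In the testis pair 33 of the 56 were germ-higher, none was somatic-higher, and the median was 4.01.

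Among the genes of meiotic entry, 8 of 9 were germ-higher and the median log2 ratio was 7.15. Stra8, the retinoic acid-responsive switch of meiosis (chromosome 6, 34870959 to 34889342), stood at 163.1 SPM in ovary germ cells and 0.161 SPM in ovary somatic cells, a 1012-fold difference [384.9 to 3624] with only 4 fragments on the somatic side. In the testis it stood at 3.41 SPM in germ cells and was listed at 0 in somatic cells. Gm1564, the listed symbol of Meioc, stood at 722.1 against 1.96 SPM, and Ythdc2, the RNA helicase that acts with it, at 282.8 against 35.7 SPM. These 2 partners keep germ cells from slipping back into mitosis, and their ratios were of very different size, 367.8-fold [274.4 to 494.0] and 7.93-fold [7.37 to 8.53]. Zglp1, a zinc finger factor of the bone morphogenetic protein route to the oogenic programme, was low, at 10.9 against 0.624 SPM. Ccnb3, a meiotic cyclin, stood at 241.2 against 0.946 SPM.

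Rec8 was the member of that list that was not called. This gene of the meiosis-specific cohesin kleisin (chromosome 14, 56237002 to 56244232) stood at 76.3 SPM in ovary germ cells and at 50.2 SPM in ovary somatic cells, 1.52-fold higher in germ cells [1.41 to 1.64]. In the testis it stood at 26.5 SPM in germ cells and 0.363 SPM in somatic cells. The ovary somatic library was thus the one in which Rec8 departed from the pattern of the other cohesin genes. Stag3 stood at 2423 against 18.2 SPM in the ovary (133.0-fold [121.0 to 146.4]), Smc1b at 1780 against 4.87 SPM (365.2-fold [304.6 to 441.1]) and Rad21l, the other meiotic kleisin, at 365.8 against 0.745 SPM (491.0-fold [310.9 to 830.2]).

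The synaptonemal complex and axis list had the highest median log2 ratio of all 38 lists, 8.83, with 10 of 11 members germ-higher. Sycp1, the transverse filament that zips the axes together (chromosome 3, 102622421 to 102740023), stood at 843.9 SPM in germ cells and 0.806 SPM in somatic cells, 1048-fold higher [687.9 to 1785]. The central element genes followed: Syce1 at 747.1 against 1.19 SPM, Tex12 at 244.0 against 0.161 SPM, Syce2 at 304.4 against 6.997 SPM, and 4930447C04Rik, the listed symbol of Six6os1, at 777.0 against 4.40 SPM. Syce3 (chromosome 15, 89220604 to 89240934) gave the largest log2 ratio of any gene listed, 12.09, from 175.4 SPM in germ cells and a single fragment (0.0403 SPM) in somatic cells, so its 4356-fold ratio has an interval from 761.4 to 167700.

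The axis genes of the same list showed the same side. Sycp2 stood at 518.1 against 1.14 SPM, Hormad1, whose protein marks unsynapsed axes, at 343.6 against 0.252 SPM (1365-fold [636.2 to 3777]), and Hormad2 at 116.8 against 1.34 SPM. Skp1a, a ubiquitin ligase adaptor that is present at the synaptonemal complex but also works in all cells, was not called, at 918.0 against 609.5 SPM. Syce2 differed between the gonads: its 2 testis libraries were level at 12.3 SPM in germ cells and 12.3 SPM in somatic cells.

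**Figure D2:**
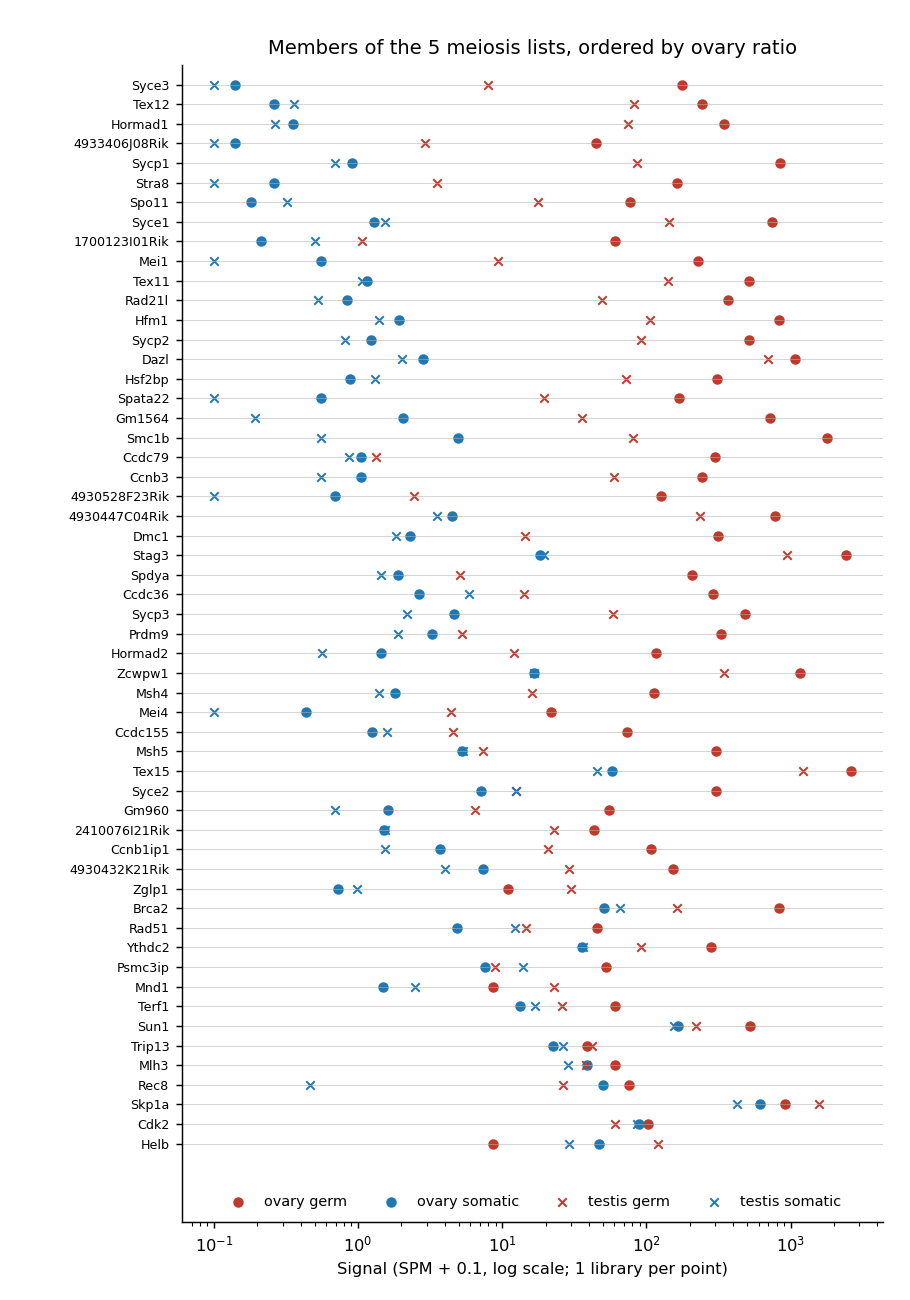
Signal of 55 of the 56 genes of the 5 meiosis lists in the 4 libraries, 1 row a gene, ordered by the ovarian ratio; the axis is SPM + 0.1 on a log scale, circles are ovary, crosses testis, red germ and blue somatic. Most red circles lie above 40 SPM and to the right of the red crosses, while Rec8 has its blue circle next to the red one and Helb, at the foot, has them in reverse order.

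To show the promoters of these genes, sequence before their start is given for members with a short known motif. CNCCTCAG is the motif described for STRA8 and CACGTG is the E-box bound by MAX and its partners. The bases are from RefSeq, GRCm38.p6, read 5′ to 3′ on the gene's strand within 120 bases before the listed start, cut where an annotated untranslated region begins, and capitals mark the match. The first 3 were taken because CNCCTCAG lies in this window, here on the opposite strand, and 1 of them, Cdk2, was not called. The other 3 were chosen after the motif shares were seen, as the synaptonemal complex members of highest ratio with CACGTG there.
Hfm1 (chr5:106925891-106926010, minus strand): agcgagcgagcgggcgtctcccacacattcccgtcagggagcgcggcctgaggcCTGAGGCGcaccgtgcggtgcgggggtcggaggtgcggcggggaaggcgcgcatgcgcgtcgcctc
Hormad2 (chr11:4441106-4441202, minus strand): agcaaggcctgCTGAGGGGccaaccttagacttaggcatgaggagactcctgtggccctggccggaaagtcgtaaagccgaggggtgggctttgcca
Cdk2 (chr10:128705052-128705171, minus strand): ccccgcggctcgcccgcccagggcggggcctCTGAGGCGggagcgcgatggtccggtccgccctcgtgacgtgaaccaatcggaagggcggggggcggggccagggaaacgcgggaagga
Tex12 (chr9:50561326-50561388, minus strand): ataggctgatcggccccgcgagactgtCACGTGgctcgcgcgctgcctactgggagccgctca
Hormad1 (chr3:95559557-95559676, plus strand): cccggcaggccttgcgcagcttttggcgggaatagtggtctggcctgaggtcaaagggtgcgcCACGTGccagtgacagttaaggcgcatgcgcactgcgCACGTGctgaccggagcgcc
Sycp1 (chr3:102936101-102936220, minus strand): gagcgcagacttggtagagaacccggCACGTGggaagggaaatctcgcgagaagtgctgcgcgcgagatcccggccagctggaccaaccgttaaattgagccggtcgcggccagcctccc

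These examples belong to a wider count over windows from 250 bases before to 50 after the start, searched on both strands. CNCCTCAG was found in 162 of the 1147 germ-higher genes with a promoter in the table, 14.1% (Wilson 95% interval 12.2 to 16.3), against 7.97% of all 27025 promoters in the table. Among the meiosis genes 10 of 46 held it, 21.7% (12.3 to 35.6), but only 4 of the 46 had it before the start, so most of these matches lay in the 50 bases after it. CACGTG was found in 11.2% of germ-higher promoters (9.47 to 13.1) against 7.24% of all promoters. It was in 5 of 11 synaptonemal complex and axis genes (Tex12, Hormad1, Sycp1, 4930447C04Rik and Sycp3) and in 7 of 17 piRNA genes (Ddx4, Mael, Mov10l1, Fkbp6, Tdrd1, Tdrd9 and Piwil1). It was in 8 of the 46 meiosis genes together, 17.4% (9.09 to 30.7), and in 1 of 21 recombination genes, a list of which 77.8% had a promoter.

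GCGGGA, a core of the site of E2F factors, was found in 38.4% of germ-higher promoters (35.7 to 41.3), against 27.1% of the 16048 listed genes with a promoter and 5410 of all 27025 promoters in the table. In the meiosis genes the share was 58.7% (44.3 to 71.7). On the same 16048 genes the shares were 8.68% for CNCCTCAG and 8.29% for CACGTG. Of the somatic-higher genes with a promoter, 34.6% held GCGGGA (32.7 to 36.6), 8.41% CACGTG and 6.51% CNCCTCAG. A promoter was in the table for 81.8% of germ-higher genes, 74.9% of somatic-higher genes and 79.1% of all genes. Each share therefore covers only part of its set, and the promoters in the table include genes not listed here. The differences were not tested, and no motif is called particular to germ-higher genes. None of the 3 motifs contains another, the base composition of the sets was not matched, and a match is only a description of letters.

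Recombination genes were germ-higher in 23 of 27 cases, with a median log2 ratio of 5.87. Spo11, the enzyme that makes the meiotic breaks (chromosome 2, 172805342 to 172819077), stood at 76.9 SPM in germ cells and 0.0806 SPM, or 2 fragments, in somatic cells, with an interval of its fold from 256.9 to 7684. Mei1, needed for those breaks, stood at 228.3 against 0.453 SPM. Prdm9, the histone methyltransferase that places the breaks, stood at 330.8 against 3.15 SPM (105.0-fold [84.0 to 133.9]). Prdm9 in the testis was at 5.15 SPM in germ cells and 1.79 SPM in somatic cells and was not called.

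Strand exchange and crossover genes were on the same side. Dmc1, the meiotic recombinase, stood at 312.5 against 2.20 SPM (142.4-fold [108.9 to 190.7]), and Hfm1, a crossover helicase, at 831.2 against 1.81 SPM (458.6-fold [340.3 to 629.3]). Msh5, a subunit of the pair that stabilises crossover intermediates, stood at 303.2 against 5.19 SPM. Trip13, an ATPase that remodels HORMA domain proteins, and Mlh3, a crossover gene, were among those not called, at 38.7 against 22.5 SPM and 60.4 against 38.9 SPM. Helb was the single somatic-higher member: this DNA helicase gene, which limits end resection (chromosome 10, 119520663 to 119550021), stood at 8.56 SPM in germ cells and 46.5 SPM in somatic cells, 5.43-fold higher in somatic cells [4.57 to 6.48].

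Of the 8 genes that tie telomeres to the nuclear envelope, 6 were germ-higher. Ccdc79, 4933406J08Rik and 1700123I01Rik, the listed symbols of the 3 subunits Terb1, Terb2 and Majin, stood at 297.0, 44.9 and 60.2 SPM in germ cells and at 0.946, 0.0403 and 0.111 SPM in somatic cells. The last 2 somatic values are 1 and 3 fragments. Ccdc155, the listed symbol of the motor adaptor Kash5, stood at 73.6 against 1.15 SPM, and Spdya, an activator of CDK2 at telomeres, at 208.2 against 1.78 SPM. Terf1, the telomere-binding protein of all cells, was 4.59-fold higher in germ cells [4.05 to 5.22], at 60.3 against 13.2 SPM. Sun1 (524.0 against 166.0 SPM) and Cdk2 (102.0 against 88.4 SPM), which work in all cells too, were not called. None of the 8 was called in the testis pair, and the median log2 ratio there was 0.98 against 6.44 in the ovary.

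Germ cell identity genes were germ-higher in 13 of 19 cases (68.4%, against 6.91% of all genes), with a median log2 ratio of 6.88. Ddx4, the germ granule helicase, stood at 366.0 SPM in germ cells and 0.483 SPM in somatic cells (757.4-fold [422.2 to 1429]). Stk31, a kinase gene with a tudor domain, stood at 1441 against 2.87 SPM (502.2-fold [399.2 to 649.7]), and Tex101, a surface glycoprotein, at 1371 against 2.94 SPM (466.2-fold [370.2 to 598.3]).

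The early members of that list, active in primordial germ cells, stood lower. Pou5f1, whose promoter drives the reporter used in the sort (chromosome 17, 35642976 to 35647722), stood at 33.0 SPM in ovary germ cells and 0.0201 SPM, less than 1 fragment, in ovary somatic cells, at least 266.1-fold higher, while testis germ cells had 531.3 SPM. Dppa4 stood at 12.7 SPM and was listed at 0 in somatic cells. Not called were Nanos3 (0.961 against 2.15 SPM), Dnd1 (6.36 against 3.38 SPM), Prdm1 (3.79 against 0.685 SPM), Prdm14 and Dppa2, both under 2 SPM in germ cells, and Kit.

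Kit and its ligand behaved differently from each other. Kit, the receptor that germ cells need to survive and migrate (chromosome 5, 75971011 to 76052746), stood at 47.2 SPM in ovary germ cells and 40.2 SPM in ovary somatic cells, 1.18-fold [1.07 to 1.29]. Kitl, which encodes its ligand (chromosome 10, 99478457 to 99563046), stood at 22.8 SPM in germ cells and 1018 SPM in somatic cells, 44.7-fold higher in somatic cells [40.5 to 49.4]. In the testis Kit was also level, at 31.4 SPM in germ cells and 34.0 SPM in somatic cells, and Kitl was at 6.04 and 98.1 SPM.

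The piRNA pathway makes small RNAs against transposons and is known mainly from male germ cells. It was germ-higher in 14 of 19 members in the ovary (73.7%, against 6.91% of all genes) and in 18 of 19 in the testis (94.7%, against 8.79%). Asz1, a germ granule anchor on mitochondria, stood at 191.4 against 0.211 SPM (905.0-fold [396.4 to 2853]), and Mov10l1, the helicase that feeds precursors into the pathway, at 790.2 against 1.75 SPM (451.1-fold [336.6 to 631.9]). Tdrd12 stood at 64.1 SPM against 2 fragments. Of the PIWI proteins themselves, Piwil2 stood at 287.1 against 3.21 SPM and was germ-higher, while Piwil4 (2.85 against 0.211 SPM) and Piwil1 (3.796 SPM, listed at 0 in somatic cells) did not reach 5 SPM. In testis germ cells Piwil4 stood at 607.7 SPM.

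Of the 11 oocyte transcription factors, 5 were germ-higher (45.5%, against 6.91% of all genes) and none somatic-higher. Figla, the helix-loop-helix factor of primordial follicle formation (chromosome 6, 85967184 to 85970990), stood at 57.1 against 0.161 SPM (354.5-fold [134.6 to 1271]), Sohlh2 at 163.2 against 0.373 SPM (438.2-fold [230.8 to 960.7]) and Lhx8 at 8.13 SPM with 0 in somatic cells. Taf4b, an oocyte-enriched subunit of the general transcription factor TFIID, stood at 363.9 against 6.75 SPM. Gata2, a zinc finger factor, stood at 14.5 against 2.40 SPM. In the testis pair 3 of the 11 were germ-higher. Nobox and Sohlh1, which act in oocytes of primordial follicles, were at 4.34 against 0.0705 SPM and 3.97 against 1.37 SPM and were not called.

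Genes of oocyte growth and maternal effect were close to silent. None of the 18 was germ-higher, against 6.91% of all genes. At or under the floor in both libraries were 7, and 2 reached 5 SPM in either library, Tle6 and Uchl1. Gdf9 stood at 1.74 SPM in germ cells, Zp3 at 0.518 SPM, and Zp1 was listed at 0. Tle6, a subunit of the subcortical maternal complex, was somatic-higher, at 20.9 SPM in germ cells and 136.2 SPM in somatic cells, 6.51-fold [5.84 to 7.28]. In the testis pair 7 of the 18 were germ-higher, Uchl1 and Nlrp14 among them, at 877.3 and 108.3 SPM in testis germ cells against 29.1 and 4.97 SPM in ovary germ cells.

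Of 15 pluripotency genes, 6 were germ-higher (40.0%, against 6.91% of all genes), at low levels: Dppa5a at 25.5 SPM, Lin28a at 55.5 SPM, Sall4 at 11.9 SPM, Zfp42 at 12.3 SPM, Sox2 at 5.51 SPM and Pou5f1 as above. Somatic values of these 6 were 0.765 SPM for Lin28a and under 0.1 SPM for the others. Nanog was at 0.697 against 0.644 SPM. Klf4, a growth-arrest factor that is also a pluripotency factor, was the only somatic-higher one (6.67%, against 14.9% of all genes), at 4.75 against 38.4 SPM.

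**Figure D3:**
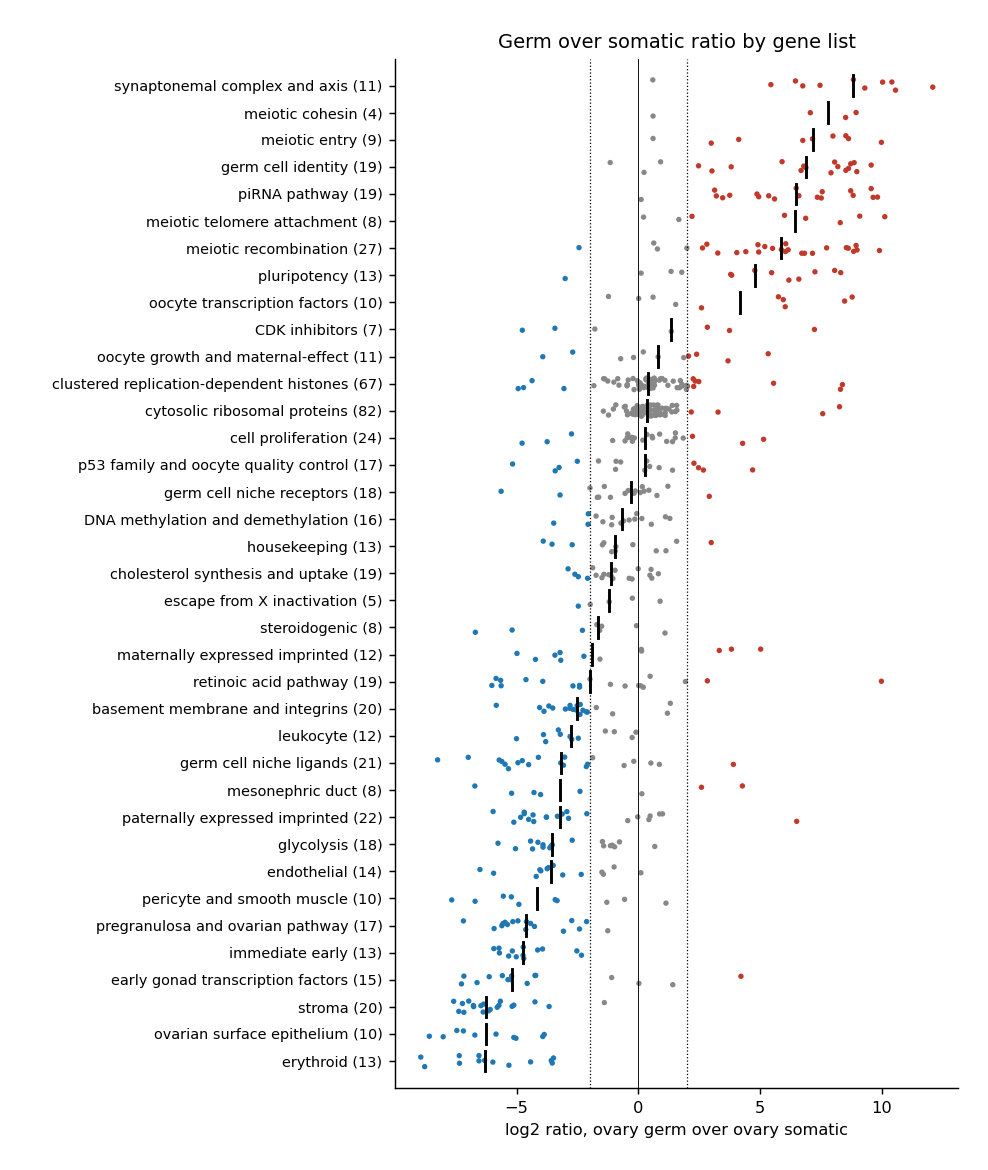
Log2 ratio of ovary germ over ovary somatic for every member with a ratio, by list; the number of such members is in brackets after each name, black bars are list medians, dotted lines are 4-fold, and red and blue points lie beyond them. The 5 meiosis lists, germ cell identity and piRNA genes sit at the top with medians from 5.87 to 8.83, and erythroid, surface epithelium and stroma genes at the foot with medians from -6.32 to -6.26.

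Lists of the ovarian pathway, the surface and the stroma lay on the somatic side. Of 17 pregranulosa genes 15 were somatic-higher (88.2%, against 14.9% of all genes), with a median log2 ratio of -4.63. Lgr5, the R-spondin receptor of surface and pregranulosa cells (chromosome 10, 114887369 to 115024836), stood at 1.03 SPM in germ cells and 150.4 SPM in somatic cells, 146.5-fold higher in somatic cells [92.4 to 247.0]. Amhr2, the receptor of anti-Müllerian hormone, stood at 9.48 against 576.3 SPM (60.8-fold [52.2 to 71.3]). Foxl2, the forkhead factor of granulosa fate, was lower in level but on the same side, at 0.480 against 9.28 SPM (19.3-fold [10.2 to 47.7]). Runx1 stood at 3.28 against 117.2 SPM. Only 6 of the 17 pregranulosa genes were somatic-higher in the testis pair, and Foxl2 there was at 0 in germ cells and 0.168 SPM in somatic cells.

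Early gonad transcription factors, which build the gonad in both sexes, were somatic-higher in 10 of 15 cases in each gonad. This was 66.7%, against 14.9% of all genes in the ovary and 10.4% in the testis. Wt1 stood at 3.83 SPM in ovary germ cells and 379.5 SPM in ovary somatic cells (99.0-fold [77.99 to 128.0]) and Lhx9 at 1.06 against 162.4 SPM (153.9-fold [99.8 to 266.7]). Nr5a1, the steroidogenic factor, stood at 5.95 against 287.7 SPM and Gata4 at 6.99 against 286.8 SPM. Six4 was level, at 8.36 against 8.22 SPM, and Cbx2 was not called, at 19.3 against 41.4 SPM.

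Surface epithelium genes were somatic-higher in 9 of 10 cases (90.0%, against 14.9% of all genes), with a median log2 ratio of -6.28. Krt19, an epithelial keratin, stood at 1.11 against 288.5 SPM (259.5-fold [170.0 to 441.6]) and Upk3b, a mesothelial membrane protein, at 1.22 against 213.3 SPM. Upk1b stood at 36.3 SPM in somatic cells against 2 fragments in germ cells. Msln, the mesothelial surface protein, reached only 2.51 SPM in somatic cells and was not called. Lgr5, Krt8 and the 2 aldehyde dehydrogenase genes of this list are also in other lists.

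Stroma genes were somatic-higher in 19 of 20 cases, with a median log2 ratio of -6.26. Col1a2, a chain of type I collagen (chromosome 6, 4455696 to 4491543), stood at 8.40 SPM in germ cells and 1624 SPM in somatic cells, 193.3-fold higher in somatic cells [164.5 to 229.0]. Dcn, a small proteoglycan, stood at 1.17 against 194.3 SPM, Pdgfra, the receptor of mesenchymal cells, at 5.36 against 802.1 SPM, and Tcf21, a mesenchymal transcription factor, at 0.546 against 78.6 SPM. The exception was Thy1, at 0 in germ cells and 0.453 SPM in somatic cells.

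Other cell types of the EGFP-negative fraction were looked for in their marker lists, beside the 14.9% of all genes that were somatic-higher. Of 10 pericyte and smooth muscle genes 6 were somatic-higher, with Acta2 at 0.575 against 117.0 SPM. Of 14 endothelial genes 8 were (57.1%), with Kdr, the receptor of vascular endothelial growth factor, at 2.07 against 188.7 SPM, while Pecam1 was level at 16.6 against 15.4 SPM. Of 12 leukocyte genes only Csf1r was (8.33%, at 1.16 against 7.73 SPM), and Ptprc, the pan-leukocyte surface marker, reached 1.198 SPM. Of 10 mesonephric duct genes 3 were (30.0%), among them Krt8, a keratin that is also in the surface epithelium list. Pax2, which marks the duct, was at or under the floor in both libraries. Of 10 steroidogenic genes 2 were, Hsd3b1 (0.528 against 55.0 SPM) and Cyp17a1 (0 against 6.27 SPM).

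Erythroid genes had a high summed signal in the somatic library, a sum in which overlapping rows are counted more than once. The 13 erythroid genes summed to 175.5 SPM in the germ library and 22980 SPM in the somatic library, and 11 were somatic-higher (84.6%, against 14.9% of all genes). Hbb-y, an embryonic globin (chromosome 7, 111000267 to 111001721), was at 83.9 SPM in somatic cells and 0 in germ cells, at least 489.5-fold higher. Slc4a1, the anion exchanger of the red cell membrane, stood at 0.283 against 124.3 SPM (440.0-fold [186.3 to 1341]). Hbb-b1 stood at 46.9 against 7671 SPM. Hbb-b1 and Hbb-b2 span almost the same bases of chromosome 7 (110961041 to 110962437 and 110961037 to 110962417), and so do Hba-a1 and Hba-a2 on chromosome 11. Their somatic fragments were nearly equal (185603 and 185545, and 87187 and 87193), so the same fragments appear to be listed under both symbols. The sum and calls of the list and the rankings below count each such pair as separate genes. Reads of the near-identical adult globin copies, Beta-s included, also cannot be assigned to 1 copy, so their single values are uncertain.

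Signals from the soma to the germ cells were tested as 21 ligands and 19 receptors. Of the ligands 13 were somatic-higher (61.9%, against 14.9% of all genes) and 1 was germ-higher (4.76%, against 6.91%), with a median log2 ratio of -3.19. Igf1 gave the largest ratio, at 0.320 against 97.5 SPM (304.3-fold [130.4 to 775.5]). Cxcl12, the chemokine that guides migrating germ cells, stood at 21.5 SPM against 3 fragments, and Bmp2, an ovarian inducer of the oogenic programme, at 4.80 against 40.6 SPM. Jag2, a Notch ligand, was the germ-higher one, at 76.9 SPM in germ cells and 5.15 SPM in somatic cells, 14.9-fold [12.47 to 18.17].

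The receptors on the germ cell side did not form a germ-higher group. Of 19, 1 was germ-higher (5.26%, against 6.91% of all genes), Cdh1, an adhesion molecule of germ cells, at 12.6 against 1.67 SPM (7.52-fold [5.41 to 10.9]). Bmpr1b (1.102 against 10.3 SPM) and Stra6 (0.631 against 31.4 SPM) were somatic-higher, 10.5% of the list against 14.9% of all genes. Notch2, a receptor of Jag2, stood at 118.5 SPM in germ cells and 381.1 SPM in somatic cells, not called. Bmpr1a and Igf1r were near level, at 215.9 against 289.7 SPM and 183.1 against 200.1 SPM.

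Retinoic acid is made from retinol by aldehyde dehydrogenases, bound by nuclear receptors and broken down by CYP26 enzymes. The synthetic enzymes were on the somatic side: Aldh1a1 stood at 7.99 against 459.6 SPM (57.5-fold [48.6 to 68.4]), Aldh1a2 at 15.7 against 239.5 SPM (15.3-fold [13.5 to 17.3]) and Aldh1a3 at 0.462 against 23.4 SPM. Dhrs3, which turns retinaldehyde back into retinol, stood at 3.32 against 215.2 SPM (64.9-fold [50.2 to 85.7]). Cyp26b1, the degrading enzyme of the fetal testis, was at 0.179 and 1.16 SPM in ovary germ and somatic cells and at 53.5 SPM in testis somatic cells. The receptor genes Rara, Rarb and Rarg were at 15.9, 6.46 and 7.32 SPM in ovary germ cells and at 63.1, 14.4 and 10.8 SPM in ovary somatic cells, none of them called. Of the 20 genes of the pathway 7 were somatic-higher and 1, Stra8, was germ-higher.

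Immediate early genes, which respond within minutes to growth factors and to tissue handling, were somatic-higher in 12 of 13 cases. This was 92.3%, against 14.9% of all genes, with a median log2 ratio of -4.74. Fos stood at 13.7 SPM in germ cells and 725.7 SPM in somatic cells (52.99-fold [46.6 to 60.4]) and Egr2 at 0.744 against 45.8 SPM (61.6-fold [35.9 to 116.3]). In the testis pair 10 of the 13 were somatic-higher, with a median of -2.63.

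Cell cycle genes did not move as a block. Of 24 proliferation genes, 3 were germ-higher and 3 somatic-higher, with a median log2 ratio of 0.27. Over all genes 6.91% were germ-higher and 14.9% somatic-higher, so neither count of 3 is read as a result about the list. Bub1, a spindle checkpoint kinase, stood at 520.5 against 14.7 SPM (35.4-fold [31.8 to 39.4]), Ccne2, an S-phase cyclin, at 300.5 against 15.4 SPM (19.5-fold [17.6 to 21.7]) and Top2a, the topoisomerase, at 1907 against 410.3 SPM (4.65-fold [4.55 to 4.75]). Ccnd2, a G1 cyclin, stood at 8.14 against 223.6 SPM, Ccnd3 at 12.3 against 82.5 SPM and Aurkb, a mitotic kinase, at 2.20 against 29.5 SPM. Mki67, the proliferation antigen, was at 715.8 against 270.6 SPM, not called, and in the testis pair at 49.7 against 670.1 SPM.

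Of 7 inhibitors of cyclin-dependent kinases, 2 were called in each direction (28.6%, against 6.91% of all genes germ-higher and 14.9% somatic-higher). Cdkn2a (18.7 SPM in germ cells, 0 in somatic cells, at least 150.6-fold) and Cdkn2c (16.4 against 2.31 SPM, 7.11-fold [5.31 to 9.61]), both of the INK4 family, were germ-higher. Cdkn1b (9.67 against 263.6 SPM, 27.3-fold [23.4 to 32.0]) and Cdkn1c (128.4 against 1388 SPM, 10.8-fold [10.4 to 11.3]), both of the CIP/KIP family, were somatic-higher. Cdkn2b, Cdkn2d and Cdkn1a were not called.

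Of 17 genes of the p53 family and oocyte quality control 4 were germ-higher, Atr, Atm, Chek1 and Pmaip1 (23.5%, against 6.91% of all genes). Atr, the kinase of unsynapsed axes and stalled forks (chromosome 9, 95758015 to 95852063), stood at 4181 SPM in ovary germ cells and 162.5 SPM in ovary somatic cells (25.7-fold [24.9 to 26.6]), and at 655.8 and 148.2 SPM in the testis pair. Atm, the kinase of double-strand breaks, stood at 1022 against 161.0 SPM (6.35-fold [6.13 to 6.57]), and Chek1 at 127.2 against 26.2 SPM. Pmaip1, a BH3-only death gene, stood at 5.57 against 1.01 SPM. Chek2 was level at 28.2 against 23.5 SPM.

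Of the same 17 genes another 4 were somatic-higher (23.5%, against 14.9% of all genes) and 9 were not called. Those somatic-higher included Trp53 at 2.98 against 31.8 SPM (10.7-fold [8.06 to 14.4]), Bak1 at 1.55 against 55.8 SPM (36.1-fold [24.7 to 55.1]) and Bcl2 at 5.89 against 56.3 SPM. Trp63, the p53 relative that guards later oocytes, was at 1.06 against 0.765 SPM.

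DNA methylation genes held no germ-higher member among 16, against 6.91% of all genes. Another 3 were somatic-higher (18.8%, against 14.9% of all genes), so neither count is read as a result about the list. Dnmt3a, a de novo methyltransferase (chromosome 12, 3806979 to 3914443), stood at 49.8 against 556.5 SPM (11.2-fold higher in somatic cells [10.43 to 11.98]), and its cofactor Dnmt3l at 0.179 SPM in germ cells and 0 in somatic cells. In testis germ cells these 2 stood at 551.7 and 454.9 SPM. Tdg (16.6 against 69.7 SPM) and Tet1 (15.1 against 62.7 SPM), both of the demethylation route, were somatic-higher, and Dnmt1, the maintenance enzyme, was at 517.5 against 240.4 SPM, not called.

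Both lists of imprinted genes had a median on the somatic side, with members called in each direction. Of 22 paternally expressed genes 14 were somatic-higher (63.6%, against 14.9% of all genes), with a median log2 ratio of -3.23. Mest, a hydrolase gene, stood at 11.3 against 706.4 SPM (62.5-fold [54.3 to 72.2]), Peg3 at 230.0 against 2318 SPM and Igf2, a fetal growth factor, at 26.3 against 600.9 SPM. Rasgrf1 was the only germ-higher one (4.55%, against 6.91% of all genes), at 11.2 SPM with 0 in somatic cells (at least 90.3-fold). Of 12 maternally expressed genes 5 were somatic-higher (41.7%, against 14.9% of all genes) and 2 germ-higher (16.7%, against 6.91%), with a median log2 ratio of -1.91. The 2 germ-higher ones were Phlda2 (5.89 against 0.181 SPM) and Slc22a18 (8.11 against 0.574 SPM), which neighbour Cdkn1c on chromosome 7.

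Of 18 glycolysis genes 11 were somatic-higher (61.1%, against 14.9% of all genes) and none was germ-higher. The median log2 ratio was -3.56, against -0.31 in the testis pair. Tpi1, the triose phosphate isomerase gene, stood at 15.4 against 838.5 SPM (54.4-fold [48.2 to 61.5]), Pfkl, a phosphofructokinase gene, at 8.68 against 288.2 SPM, and Ldha, a lactate dehydrogenase gene, at 9.22 against 188.2 SPM. Slc2a3, a glucose transporter, was the 1 member with a ratio above 0, at 62.8 against 39.3 SPM. Of 19 cholesterol genes 4 were somatic-higher (21.1%, against 14.9% of all genes) and none germ-higher. Of 20 basement membrane and integrin genes 16 were somatic-higher (80.0%, against 14.9% of all genes), with Nid1 at 5.09 against 291.6 SPM.

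Of 13 housekeeping genes 9 were not called, 3 were somatic-higher (23.1%, against 14.9% of all genes) and 1 was germ-higher (7.69%, against 6.91%). Actb (235.3 against 3528 SPM, 15.0-fold [14.5 to 15.5]), Gapdh (26.5 against 175.3 SPM) and Gusb (3.52 against 41.4 SPM) were somatic-higher. Hprt, an X-linked purine salvage gene, was germ-higher at 405.2 against 51.1 SPM (7.93-fold [7.47 to 8.43]). Sdha, at 191.8 against 224.2 SPM, and Ppia, at 1065 against 640.4 SPM, lay close to level.

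The cytosolic ribosomal protein genes, 82 in number, had a median log2 ratio of 0.37, and 79 were not called. The germ-higher share was 3.66%, against 6.91% of all genes. The 3 germ-higher ones were Rpl10l (37.1 SPM against 3 fragments), Rpl39l (23.6 SPM, 0 in somatic cells, at least 190.4-fold) and Rps27l (53.04 against 11.8 SPM). The first 2 are the retrocopy paralogues of Rpl10 and Rpl39 known from the testis. Multigene families such as this one and the next can share reads between near-identical copies, which limits single values.

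The clustered replication-dependent histone genes, whose transcripts lack a poly(A) tail and stay in ribosomal RNA-depleted libraries, were 8 germ-higher and 4 somatic-higher of 67, with a median log2 ratio of 0.41. These shares were 11.9% and 5.97%, against 6.91% and 14.9% of all genes. In the testis pair 54 were somatic-higher, none was germ-higher, and the median was -3.32. Hist1h1a, a linker histone gene (chromosome 13, 23855536 to 23856283), stood at 3336 against 599.9 SPM (5.56-fold [5.46 to 5.66]). Hist1h2ba and Hist1h2aa, the germ cell variants TH2B and TH2A that lie side by side, stood at 576.0 against 1.73 SPM (332.6-fold [245.3 to 460.7]) and at 171.0 against 0.544 SPM (314.6-fold [185.8 to 598.4]). Hist1h1t, the linker variant named for the testis, stood at 258.9 against 5.53 SPM. The somatic-higher ones were all of the chromosome 3 cluster, Hist2h2ab, Hist2h2ac, Hist2h2be and Hist2h4, from 1.01 to 2.31 SPM in germ cells.

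Without regard to lists, genes with at least 50 SPM were ranked on the ratio of SPM + 0.5, which lowers ratios that rest on a near-zero somatic or germ value. By that ranking the 12 furthest toward germ cells were AV320801, Tex12, Hormad1, Sycp1, Fmr1nb, Ddx4, Syce1, Stk31, Tex101, Hfm1, Mov10l1 and Dazl. AV320801, an X-linked gene not in any list, stood at 202.7 SPM against 2 fragments, and Fmr1nb, also X-linked, at 351.1 against 0.433 SPM (810.9-fold [461.5 to 1772]). On the same SPM + 0.5 ranking the 12 furthest toward somatic cells were Islr, Sparcl1, Emp1, Col1a2, Krt19, Slc4a1, Mmp2, Gucy1a3 and the 4 globin rows Beta-s, Hbb-y, Hbb-b1 and Hbb-b2. The rows of Hbb-b1 and Hbb-b2 overlap almost fully. Islr, a secreted leucine-rich repeat protein of mesenchyme, stood at 174.6 SPM against 2 fragments. Emp1, an epithelial membrane protein, stood at 0.546 against 211.9 SPM and Mmp2, a matrix metalloprotease, at 2.14 against 374.6 SPM. By the plain SPM ratio, Syce3 and Stra8 on the germ side and Igf1 and Capn6 on the somatic side also exceed some of these.

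Per kilobase of listed length, the scale on which genes can be compared, the highest germ-higher level was that of Hist1h1a, 4460 SPM per kb. Hist1h4d, Hist1h4m and Hist1h4n followed at 3239, 2836 and 2518 SPM per kb, then Hist1h2ba at 1496 and Tex101 at 1293 SPM per kb. The spans of Hist1h4m and Hist1h4n overlap, so their values can share fragments. Hsp90aa1, a chaperone, reached 748.8 and Spata5, an AAA ATPase, 617.5 SPM per kb. The somatic-higher rows of highest level were the adult globins, some of them overlapping, from 3183 to 12510 SPM per kb in somatic cells. Actb followed at 1862, Tmsb4x, an actin-binding peptide gene, at 1802 and Anxa2, an annexin, at 1420 SPM per kb.

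The X chromosome held more germ-higher genes than the autosomes. Of 840 X-linked genes 116 were germ-higher, 13.8%, against 6.62% of autosomal genes, while 14.2% were somatic-higher against 14.9%. On single autosomes the germ-higher share ran from 5.64% on chromosome 11 to 8.28% on chromosome 3. Over genes with a mean of 5 SPM the X median log2 ratio was 0.04 against -0.11 for autosomes, a difference of 0.15, and the single autosomes ran from -0.51 on chromosome 18 to 0.16 on chromosome 12. The X median lay within that range, so the X stood out in its number of strongly germ-higher genes and not in its typical gene.

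Ranked on SPM + 0.5 among genes with at least 20 SPM, the 5 X-linked genes furthest toward germ cells were AV320801, Fmr1nb, 1700013H16Rik (221.9 against 0.292 SPM), Tex11, a recombination gene (513.1 against 1.05 SPM), and Dmrtc1c1 (707.4 against 1.95 SPM). Xlr5a, which is X-linked too, had a larger plain ratio than Fmr1nb, at 137.4 SPM with 0 in somatic cells. Toward somatic cells the 5 on the same ranking were Capn6, a calpain without protease activity (0.283 against 84.2 SPM), Armcx1 (0.546 against 79.1 SPM), Bgn, a matrix proteoglycan (1.38 against 172.5 SPM), Gdpd2 (0.480 against 58.4 SPM) and Dcaf12l1 (4.51 against 325.1 SPM). Of 5 genes known to escape X inactivation, none was germ-higher and Mid1 was somatic-higher, at 2.73 against 15.2 SPM.

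**Figure D4:**
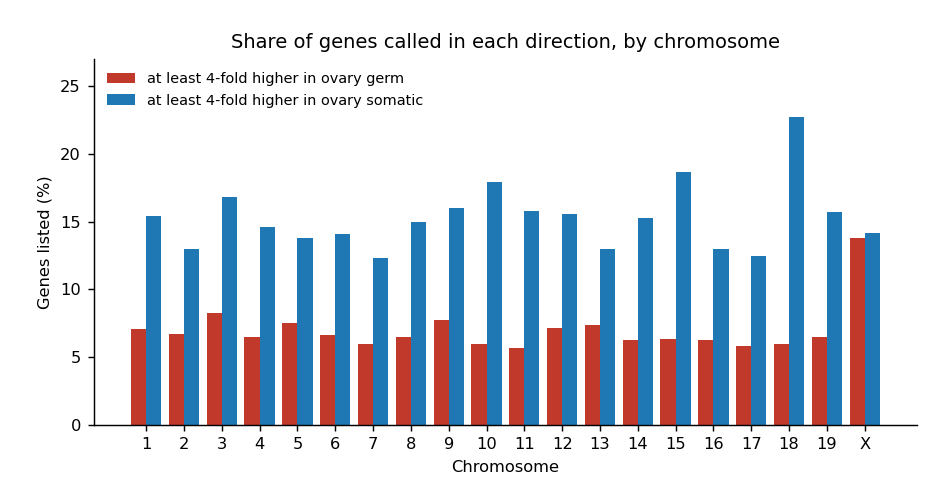
Share of the genes listed on each chromosome that were germ-higher (red) or somatic-higher (blue) in the ovary, in percent, 1 library a side. The X has a red bar of 13.8%, above the red bar of every autosome (5.64% to 8.28%), and a blue bar of 14.2% within the autosomal range.

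Set beside the testis pair, part of what marked ovarian germ cells was shared by male germ cells of the same age. Of the 1403 ovarian germ-higher genes 602 were germ-higher in the testis too, 42.9% of the ovarian calls and 33.7% of the 1784 testis calls (8.79% of all genes). Of the 3018 ovarian somatic-higher genes 1417 were somatic-higher in the testis, 47.0% of the ovarian calls and 66.9% of the 2119 testis calls (10.4% of all genes). Across 11914 genes with a mean of 5 SPM the 2 log2 ratios had a Pearson r of 0.68 and a Spearman rho of 0.61, a description across genes, which are not replicates.

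Calls in opposite directions were few. Only 10 genes were germ-higher in the ovary and somatic-higher in the testis, and 76 the other way. The first kind included Cited1, a transcriptional coactivator (52.0 against 1.09 SPM in the ovary, 2.07 against 17.2 SPM in the testis), Pcdh17, a protocadherin (48.2 against 6.74 SPM, and 0.0783 against 6.23 SPM), Stxbp5l, Hist1h1a and Hist1h3f. The second kind included Rrad, a small GTPase (2.00 against 16.4 SPM in the ovary, 351.6 against 2.32 SPM in the testis), Gulo, the gene of the last enzyme of vitamin C synthesis (1.08 against 5.70 SPM, and 59.4 against 0.242 SPM), Unc45b, Tspan8 and Tmem130. On the log2 of SPM + 0.5 the ovarian ratio of Gulo was -1.97, short of 4-fold, which ends its call. No replicate exists for either pair, so the differences between the gonads were not tested.

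**Figure D5:**
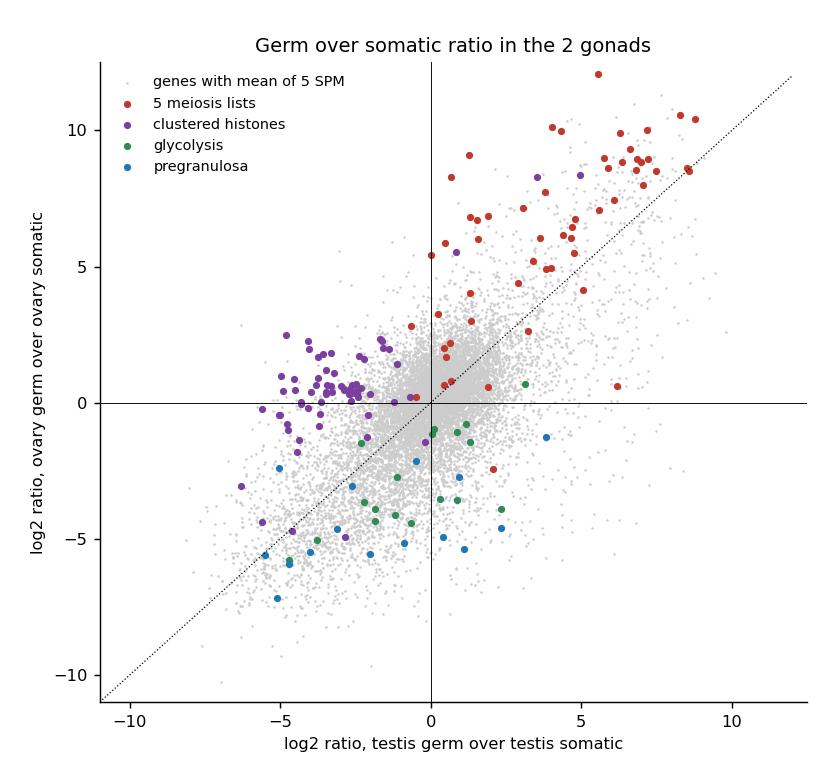
Log2 ratio of germ over somatic in the ovary (vertical) against the testis (horizontal); grey points are genes with a mean of at least 5 SPM over the 4 libraries, coloured points list members, the dotted line equality. Meiosis genes lie mostly in the upper right (medians 6.73 in the ovary and 4.01 in the testis), with Rec8 below the line and Helb below 0 in the ovary. Clustered histones lie mostly left of 0, with medians of -3.32 in the testis and 0.41 in the ovary. Glycolysis and pregranulosa genes lie mostly below 0 in the ovary.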

How the data were processed

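RNA from sorted ovarian germ and somatic cells was sequenced as strand-specific paired-end libraries after ribosomal RNA depletion, per the labels' protocols, and gene values are available for 1 library in each of 4 groups. TopHat 1.2.0, CASAVA 1.9, edgeR and the mm9 build are listed in the submitters' processing notes, without saying what each did. Not given in the sources used here: counting program, annotation and strand setting. Gene values as the authors deposited them are a scaled signal: the column is headed counts, per the file headers, but its whole numbers pile up on multiples of 6.065 in the female germ and 4.105 in the female somatic library (54.3% and 50.2% of values up to 60 lie within 0.5 of one). The plan had allowed for raw counts, and no count model was used. Fragments were estimated by dividing by this spacing and rounding, and values between multiples are rounded too. PCR copies cannot be told from molecules, so intervals and floors cover counting error only. Of 20373 rows 74 repeats were removed.

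Each library was divided by its total. A fold used the SPM ratio, with a library at 0 fragments set to the floor of 3, and ratios were left out where both were at or under the floor. Python 3.11.15, numpy 2.4.6, pandas 2.3.3, scipy 1.17.1 and matplotlib 3.10.9 were used, and the scripts were tested on simulated data. The members and the gene lists were chosen with earlier results of these data known. Genes were named by rule: the 4 markers, the 12 largest ratios each way at 50 SPM or more (ranked on SPM + 0.5), the 8 highest levels per length each way, up to 6 members a list (lists under 12 whole), the 5 largest X-linked ratios each way and 5 genes each way with opposite calls in the gonads, both at 20 SPM. Members beyond these were named after their values were seen, where a count of exceptions called for them. A list symbol without a row was left out, and a few listed genes are counted but not reported here by name. Motifs were searched in RefSeq promoters of GRCm38.p6, of which 16048 matched the 20299 genes, 46 of them among the 56 meiosis genes. Alternatives were other scalings, minimum levels, folds, a pseudocount, repeated rows kept and a shorter promoter window.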

Additional observations from a re-analysis of the deposited data

Results flagged for a closer look

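The genes below were singled out because they were called germ-higher in 1 gonad and somatic-higher in the other. Each value rests on 1 library a side, and the difference between the gonads was not tested. Among 16 such genes named, 6 were germ-higher in the ovary. Cited1 had a log2 ratio of 5.58 in the ovary and -3.05 in the testis. Stxbp5l had 4.33 and -2.66, Pcdh17 2.84 and -6.32, and Cdkn2c 2.83 and -3.13. The histone genes Hist1h1a and Hist1h3f had 2.48 and -4.83, and 2.25 and -4.07.

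The other 10 were somatic-higher in the ovary. Unc45b, a myosin chaperone gene, had -5.58 in the ovary and 6.08 in the testis, Tmem130 -4.59 and 5.36, and Tspan8, a tetraspanin gene, -4.31 and 5.84. Pax8 had -4.29 and 2.55, Aldoc, an aldolase gene, -3.92 and 2.34, and Bmpr1b -3.22 and 4.38. Rrad had -3.03 and 7.25, Tle6 -2.70 and 2.31, Helb -2.44 and 2.06, and Gulo -2.40 and 7.94. With 0.5 SPM added, the ovarian value of Gulo was -1.97, and its call ended. Over all genes the same opposition was seen 10 times in the first direction and 76 times in the second.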

How the results depend on the processing

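All alternatives run were planned. Counts and motif shares have no sign, so an alternative could change only their size. Call counts changed with the fold and the minimum level, and motif shares with the promoter window. Somatic-higher calls outnumbered germ-higher ones in every setting. Between 44 (8-fold) and 50 (2-fold) of the 56 meiosis genes were germ-higher. Each list median kept its sign under the other scalings, with 0.5 SPM added and with repeated rows kept. Sizes were less stable: with 0.5 SPM added several medians moved toward 0. That of oocyte transcription factors went from 4.17 to 2.73, of pluripotency genes from 4.78 to 2.97 and of mesonephric duct genes from -3.21 to -2.13. The median-of-ratios scaling moved the median log2 ratio of all genes by 0.13 and both trimmed-mean scalings by 0.11, toward germ cells, and the germ-higher count was then 1554 and 1533. It was 3073 at a 2-fold threshold and 738 at an 8-fold one, while the share of calls that were germ-higher ran from 26.3% (8-fold) to 41.1% (2-fold). With a minimum of 20 SPM the counts were 1036 and 2102, with 1 SPM 1910 and 3724, and without the erythroid genes in the totals 1363 and 3067. Counted only in the 250 bases before the start, the germ-higher shares were 10.1% for CNCCTCAG, 9.33% for CACGTG and 31.0% for GCGGGA, against 6.39%, 6.05% and 16.9% of all promoters. Over the listed genes with a promoter the shares were 6.80%, 6.96% and 22.7%. Over somatic-higher genes they were 5.49%, 7.17% and 29.3%, so GCGGGA was nearly as frequent there. No paired analysis was possible because each group has 1 library, and for the same reason no library could be left out. Genes near the floor of 3 fragments carry the widest intervals.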

Other observations

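Gene groups picked after the values had been seen are given here as descriptions. The Xlr genes, an X-linked family related to the synaptonemal protein Sycp3, were germ-higher in 9 of 11 cases in the ovary. This was 81.8%, against 6.91% of all genes and 13.8% of X-linked genes, with a median log2 ratio of 8.48 over the 9 with a ratio. Xlr5a stood at 137.4 SPM in germ cells and 0 in somatic cells, and Xlr4c at 226.0 against 0.634 SPM. The other 2 members, Slx and Slxl1, were listed at 0 in both ovarian libraries. In the Rhox cluster of X-linked homeobox genes 8 of 30 were germ-higher (26.7%) and none somatic-higher, led by Rhox13 at 83.5 against 0.232 SPM, which stood at 9.02 SPM in testis germ cells. Copies within both families are similar in sequence, so single members are uncertain.

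Fanconi anaemia genes, which repair crosslinked DNA, were germ-higher in 7 of 15 cases (46.7%, against 6.91% of all genes) and somatic-higher in none. Ube2t, the ubiquitin-conjugating enzyme of the pathway, stood at 100.3 against 2.23 SPM and Palb2, the partner of Brca2, at 83.8 against 7.33 SPM. Of the 8 augmin genes, whose complex branches spindle microtubules, 3 were germ-higher (37.5%, against 6.91% of all genes), Haus8 most (138.0 against 9.86 SPM). Of 36 genes of respiratory complex I, 7 were germ-higher (19.4%, against 6.91% of all genes) and none somatic-higher. Their median log2 ratio was 1.11, against 0.31 in the testis pair. Ndufa1, which is X-linked, stood at 69.2 against 3.91 SPM. The 8 cytosolic chaperonin genes had a median of 1.18 with no call. Of 16 polycomb genes 2 were germ-higher, Pcgf6 and Cbx7. Of 39 proteasome genes 2 were germ-higher, Psmd6 and Psma8 (5.13%, against 6.91% of all genes), and 1 somatic-higher, Psmb10 (2.56%, against 14.9%).

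Of 9 class I histocompatibility and antigen processing genes, H2-K1 and H2-D1 were germ-higher (22.2%, against 6.91% of all genes). They stood at 338.1 against 4.91 SPM and 222.9 against 8.73 SPM, while testis germ cells had 2.00 and 3.54 SPM. B2m, the light chain that both need at the cell surface, stood at 10.3 against 27.6 SPM in the ovary, and Tapbp, a loading factor, was somatic-higher at 7.50 against 80.0 SPM. The classical class I genes were thus high in the ovary germ library alone of the 4.

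On the somatic side, 6 of 10 Hedgehog receptor and target genes were somatic-higher, with Gli2 at 22.4 SPM and 0 in germ cells, 3 of 6 Notch target genes (Hes1 at 5.14 against 117.8 SPM, Hey1 and Heyl), and 3 of 7 inhibitor genes downstream of the TGF-beta superfamily (Id2, Smad7 and Bambi). The somatic-higher shares of keratins, Hox genes and numbered zinc finger genes lay near that of all genes. Of 46 keratins 8 were somatic-higher (17.4%, against 14.9% of all genes) and none germ-higher. Of 39 Hox genes 7 were somatic-higher (17.9%), Hoxc8, Hoxc6, Hoxc5 and 4 genes of the Hoxd cluster, and 1, Hoxd1, germ-higher at 8.67 against 0.121 SPM. Of 333 numbered zinc finger genes 51 were somatic-higher (15.3%, against 14.9% of all genes) and 15 germ-higher (4.50%, against 6.91%).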
